A study of Mus musculus with 39 samples.

Results

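Nuclear genes for subunits of the 5 oxidative phosphorylation complexes were followed in 39 mouse RNA-seq libraries. Members were taken by gene name: Ndufa, Ndufb, Ndufc, Ndufs or Ndufv with a number (the Ndufaf assembly factors left out), Uqcr, Cox4 to Cox8, Atp5, and Sdha to Sdhd. The rule found 77 of the 11556 genes listed in the 5 experiments, with 35 in complex I, 4 in complex II, 8 in complex III, 13 in complex IV and 15 in complex V. The remaining 2, Atp5s and Atp5sl, carry an Atp5 name but encode proteins that are not held to be structural parts of ATP synthase. Ndufa4 was counted with complex IV, where its protein is known to sit. Each experiment lists its own genes: 74 members in hepatocytes, 75 and 76 in bone marrow monocytes at 4 h and 17 h, 68 in the genotype experiment and 76 in spinal cord monocytes. All but 10 members were listed in all 5 experiments, and every listed member passed the filter on low values.

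Oxidative phosphorylation is the last step of fuel oxidation in the inner mitochondrial membrane. Complexes I (NADH dehydrogenase) and II (succinate dehydrogenase, which is also a Krebs cycle enzyme) pass electrons to ubiquinone, complex III passes them to cytochrome c and complex IV to oxygen. Complexes I, III and IV pump protons, and complex V, the ATP synthase, makes ATP as protons flow back. Complex II is made of nuclear-encoded subunits alone, whereas the other complexes also hold subunits encoded by mitochondrial DNA, so 2 genomes have to be expressed together. In liver the pathway serves fatty acid oxidation and glucose production during fasting.

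All mice were 8 to 12 weeks old. They were C57BL/6 apart from the CCR2-/- mice of the genotype experiment, which lack the chemokine receptor that lets monocytes leave the marrow. Hepatocytes were prepared by liver perfusion and centrifugation from fed mice at 4 h (3 libraries) and 12 h (2 libraries), and from mice fasted for 4 h (2 libraries) and 12 h (3 libraries). Monocytes sorted from bone marrow came from fed and fasted mice at 4 h (4 and 4 libraries) and at 17 h (3 and 4 libraries), and from fed C57BL/6 and fed CCR2-/- mice (3 and 3 libraries). Experimental autoimmune encephalomyelitis (EAE), a model of multiple sclerosis, had been induced in the mice whose spinal cord monocytes were sorted, and these mice were either fed or kept for 4 weeks on alternating 24 h periods with and without food (4 and 4 libraries). Fed mice always had food and water freely; fasted mice had water only. The study asked how food intake acts on the monocyte pool.

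Alb, the main protein product of hepatocytes, was at 20310 to 42360 TPM (transcript shares scaled to a common library total) in the hepatocyte libraries. Lyz2, a lysozyme of myeloid cells, was at 49440 to 82770 TPM in marrow and 23370 to 44350 TPM in spinal cord libraries. Ccr2 itself was at 2449, 2622 and 2338 TPM in the C57BL/6 libraries of the genotype experiment and at 64.7, 62.3 and 60.8 TPM in the CCR2-/- libraries. Some libraries stood apart in ways that touch the results. Monocyte genes differed between the 17 h marrow groups: Csf1r, a growth factor receptor of monocytes, was at 46.5 to 82.9 TPM in the fed libraries, against 365 to 529 TPM in the fasted ones. Ccr2 was at 486 to 547.5 and 1818 to 2223 TPM and the surface marker Ly6c2 at 11200 to 12580 and 4926 to 5659 TPM in the same groups. Fed libraries 1 and 2 of the spinal cord held 119100 and 124000 TPM of neutrophil markers, against 6743 to 19360 in the other 6, and Ccr2 was at 49.8 and 57.8 TPM in them, against 213 to 889.5 TPM. In the fed 17 h marrow libraries, genes with transcripts under 1000 bases took 45.6% to 50.04% of the TPM, against 16.2% to 19.4% in the fasted ones. In bulk libraries fewer cells of a type and less RNA per cell cannot be told apart, and TPM are shares of a library, so a group of genes can fall because other genes rise.

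Promoters are shown for 4 members on which the results below turn, since nuclear respiratory genes are textbook targets of the factors NRF1 and GABPA. RefSeq promoter sequences (build GRCm38.p6) were matched for 66 of the 77 members, and the 250 bases upstream of each start were searched on both strands. A gene held a match where any of its starts did. The NRF1 core GCGCATGC was found for 8 of the 66 members (12.1%), against 2.56% of all 27025 RefSeq genes, whether or not listed in these data. The GABPA core CCGGAAG was found for 12 members (18.2%), against 7.83% of those genes. YY1 (AAGATGGC) and the estrogen-related receptors (TCAAGGTCA) had matches in 2 members and 1 member, or 3.03% and 1.52%, against 1.83% and 0.422% of those genes. In the sequences below, read from 5′ to 3′ and ending at the base before the start, capitals mark matches to the NRF1 or GABPA core. Sdhb (chr4:140961021-140961270, plus strand) holds an NRF1 match, Sdhd (chr9:50603850-50604099, minus strand) a GABPA match, and Cox6a1 (chr5:115348959-115349208, minus strand) both. Atp5b (chr10:128083057-128083306, plus strand) holds neither. The NRF1 match in Cox6a1 reads as the core on either strand, which capitalizes 10 bases, and no match overlaps that of the other factor.
Sdhb: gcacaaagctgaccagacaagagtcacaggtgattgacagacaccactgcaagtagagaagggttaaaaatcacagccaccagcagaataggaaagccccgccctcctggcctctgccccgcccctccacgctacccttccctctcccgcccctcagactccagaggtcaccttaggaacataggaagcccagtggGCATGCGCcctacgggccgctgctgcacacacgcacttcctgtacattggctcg
Sdhd: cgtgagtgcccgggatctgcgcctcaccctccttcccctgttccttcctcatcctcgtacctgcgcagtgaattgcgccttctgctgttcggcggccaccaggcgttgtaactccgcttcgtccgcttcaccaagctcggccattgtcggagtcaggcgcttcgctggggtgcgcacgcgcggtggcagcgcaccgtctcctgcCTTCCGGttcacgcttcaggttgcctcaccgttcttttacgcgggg
Cox6a1: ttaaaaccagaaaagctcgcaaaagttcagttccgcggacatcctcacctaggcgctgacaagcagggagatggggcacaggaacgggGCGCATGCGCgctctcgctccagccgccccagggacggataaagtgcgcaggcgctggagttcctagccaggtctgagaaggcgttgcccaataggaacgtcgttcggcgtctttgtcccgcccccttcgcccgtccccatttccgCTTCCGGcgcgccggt
Atp5b: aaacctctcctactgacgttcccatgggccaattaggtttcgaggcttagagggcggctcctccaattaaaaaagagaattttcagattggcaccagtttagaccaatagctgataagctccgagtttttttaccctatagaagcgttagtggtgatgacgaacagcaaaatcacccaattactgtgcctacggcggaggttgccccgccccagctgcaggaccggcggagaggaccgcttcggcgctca

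Complex V had the highest summed TPM of the complexes in 11 of the 12 groups. The exception was the fed 17 h marrow group, with complex I at 10640 ± 862 and complex V at 10120 ± 713 TPM (SD, n = 3). Complex I was above complex V in each of these 3 libraries (10260, 11630 and 10030 against 9746, 10940 and 9667 TPM). Cox4i1 was the most abundant complex IV member in all 12 groups and Atp5b that of complex V in 11, with Atp5g3 first in fed 17 h marrow. Sdhb led complex II in 9 groups, and Uqcrc1 led complex III in 8 and Uqcrfs1 in 3. Atp5b, the catalytic beta subunit of ATP synthase, averaged 1318, 986 and 936 TPM over the groups of those sources. Cox4i1, the ubiquitous isoform of the regulatory subunit 4, averaged 755, 675 and 646 TPM, and Uqcrc1, a core subunit of complex III, 519, 286 and 445 TPM. The leader of complex I varied most: Ndufv2, a core subunit, led in 4 groups, and the accessory subunits Ndufb8 and Ndufb9 of the membrane arm in 3 and 2. By these averages the highest member over the lowest was 1.67-fold in complex II and 54.9-fold in complex V of hepatocytes, and in marrow 2.88-fold in complex II, 3.14-fold in complex III and 39.3-fold in complex V. Experiments were quantified and filtered separately, so levels across them carry no test.

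Which subunits changed when the liver went without food was examined first at 4 h. After 4 h of fasting 19 of the 74 members were lower in hepatocytes and 1 was higher (limma on log2(TPM + 1), Benjamini-Hochberg adjusted p under 0.05). Over all genes tested 26.8% were called lower and 10.4% higher, so the share of lower members (19 of 74) was near the background. The median member stood at -0.29 on the log2 scale, against -0.22 for all genes. With each library centred on its own median, 15 members were lower and 3 higher, against 1947 and 1153 of 8966 genes. The calls were spread unevenly by complex: 5 of 34 members of complex I, 3 of 4 of complex II, 2 of 8 of complex III, 1 of 12 of complex IV and 8 of 14 of complex V were lower. Among the 8 were all 5 subunits of the F1 part, the catalytic head of ATP synthase.

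Ndufs1, the largest complex I subunit and a carrier of iron-sulfur clusters, was at 38.1, 41.4 and 39.5 TPM in the fed libraries, against 13.5 and 11.7 TPM in the fasted ones at 4 h. It fell by 1.58 ± 0.10 on the log2 scale (SE, limma adjusted p = 9.48e-06), with no overlap between groups. Sdha, the flavoprotein that oxidizes succinate, was at 246, 264 and 275 TPM against 138 and 145 TPM, a difference of -0.88 ± 0.08 (adjusted p = 5.38e-05). Its groups did not overlap either. The other complex II members followed at -0.44 ± 0.08 for the iron-sulfur protein Sdhb and -0.43 ± 0.11 for the membrane anchor Sdhd (adjusted p = 0.00211 and 0.016). Sdhc, the second anchor, was at -0.32 ± 0.14 and did not pass the test (adjusted p = 0.10). Its fasted libraries were at 232 and 349.9 TPM, and the latter lay inside the fed range of 347 to 364 TPM.

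In complex III, Uqcrfs1, the Rieske iron-sulfur protein that takes electrons from ubiquinol, was at 339.6, 332 and 365 TPM in the fed 4 h libraries, against 197 and 189 TPM in the fasted ones. The groups were well apart, at -0.83 ± 0.06 (limma adjusted p = 2.78e-05). Uqcrc2 was also lower (-0.41 ± 0.09, adjusted p = 0.00625), while Uqcrc1, at -0.15 ± 0.08, did not pass the test (adjusted p = 0.164). Complex IV held the member called higher, Cox6a1, the isoform of subunit 6a found outside heart and muscle. It was at 507, 406 and 423 TPM against 780.1 and 651 TPM, a rise of 0.68 ± 0.14 (adjusted p = 0.00551). Cox6c, another small subunit of the same complex, went the other way (-0.69 ± 0.10, adjusted p = 0.000831), and Cox4i1 was at 0.00 ± 0.12 (adjusted p = 0.995).

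ATP synthase gave the most lower members at 4 h. Atp5f1, subunit b of the peripheral stalk, was at 302, 283 and 285 TPM in the fed libraries, against 166 and 132 TPM in the fasted ones (-0.96 ± 0.09, limma adjusted p = 7.82e-05). The F1 subunits changed less: Atp5a1 (alpha) by -0.42 ± 0.08, Atp5b (beta) by -0.45 ± 0.09, Atp5c1 (gamma) by -0.47 ± 0.06 and Atp5d (delta) by -0.27 ± 0.09, with adjusted p from 0.000327 to 0.0372. The 3 Atp5g genes encode the same mature c subunit of the proton-driven ring. Atp5g3, the most abundant at 986, 967 and 1017 TPM against 733 and 675 TPM, was lower (-0.49 ± 0.07, adjusted p = 0.00056), and Atp5g1 and Atp5g2 did not pass the test.

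The fasted 4 h libraries differed from each other for short subunits. Cox8a was at 374 TPM in fasted library 1 and 2.62 TPM in library 2, with 147, 96.3 and 109 TPM in the fed libraries, and Uqcr10 was at 204 TPM in the first and listed at 0 in the second. Cox6b1 was at 220.5 and 38 TPM in the same libraries. Without fasted library 1 the median member was at -0.49 on the log2 scale, against -0.21 for all genes. Without library 2 it was at -0.07, against -0.22. Ndufs1, Sdha, Uqcrfs1, Atp5f1 and Cox6a1 did not depend on this choice, as their calls held without either library. At 4 h the summed Kupffer cell markers, which mark liver macrophages, were at 1284 to 1333 TPM in the fed libraries, against 2143 to 2159 TPM in the fasted ones. Of the 9 Kupffer cell markers 5 were called higher and of the 10 endothelial markers 8. The 5 listed erythroid markers went the other way, with 3 called lower and sums of 3971 to 4937 TPM in the fed libraries, against 1453 to 2940 TPM in the fasted ones; whether such cells carry the subunit differences was not tested.

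**Figure D1:**
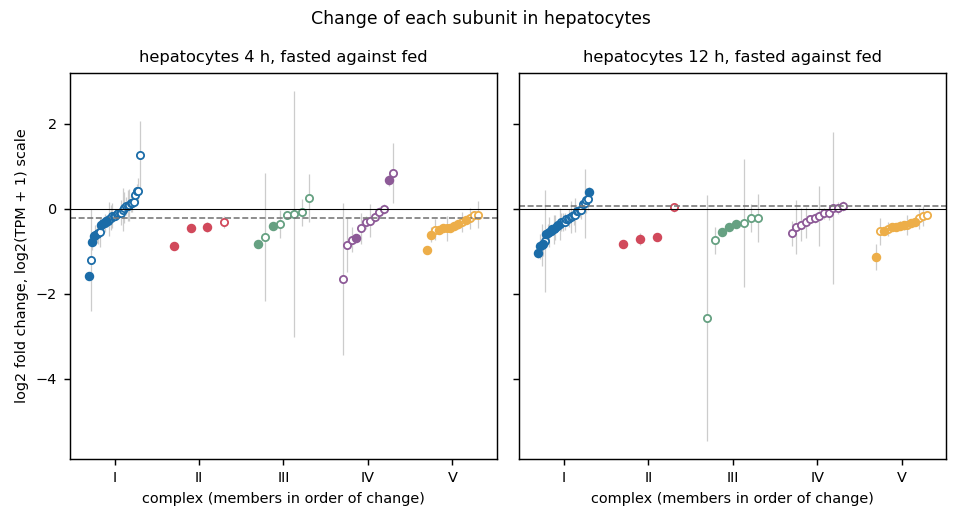
Log2 fold change of each member, fasted against fed (y axis, log2(TPM + 1) scale), in hepatocytes at 4 h and 12 h, by complex (x axis), with members in order of change and bars for the SE; filled points passed the adjusted p of 0.05 and the dashed line is the median of all genes. Complexes II and V hold the highest shares of filled points below 0 at both times, and complex IV has no filled point at 12 h.

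At 12 h of fasting 22 of the 74 members were lower and 1 was higher. Of all genes 16.8% were called lower and 23.4% higher, and the median member was at -0.33 against 0.05 for all genes. With libraries centred on their median, 29 members were lower and 0 higher, against 1842 and 1884 of 8966 genes. With a trend on transcript length removed, 19 were lower and 4 higher, against 1744 and 1887 of 8934 genes. By complex, 8 of 34 members of complex I, 3 of 4 of complex II, 3 of 8 of complex III, 0 of 12 of complex IV and 8 of 14 of complex V were lower. With quantile normalization 14 members were lower and 1 higher, against 1939 and 1929 of 8966 genes. The median member was then at -0.18, against -0.05 for all genes. Without fed 12 h library 2 the median member was at -0.25, against 0.05 for all genes.

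In complex II 3 genes were lower and 1 was not called. Sdha was at 441 and 431 TPM in the fed 12 h libraries, against 248, 228 and 263 TPM in the fasted ones (-0.83 ± 0.08, limma adjusted p = 2.27e-05). Sdhb was at 353 and 361 TPM against 208, 238 and 230.3 TPM (-0.66 ± 0.08, adjusted p = 0.000101). Sdhc was at 262 and 253 TPM against 156, 162 and 153 TPM (-0.71 ± 0.14, adjusted p = 0.00268). In these 3 genes every fasted library lay under every fed one. Sdhd did not join them, with 409 and 405 TPM against 407, 415 and 425 TPM (0.03 ± 0.11, adjusted p = 0.859).

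Ndufs8, which carries iron-sulfur clusters on the way to the quinone site of complex I, was at 106 and 126 TPM in the fed libraries, against 56.3, 56.6 and 54.1 TPM in the fasted ones at 12 h. It was lower (-1.04 ± 0.12 on the log2 scale, limma adjusted p = 0.000113), as was the NADH module subunit Ndufv2 (-0.49 ± 0.06, adjusted p = 0.000223). Ndufs7, a neighbour of Ndufs8 in the quinone module, was at 115 and 118 TPM against 143, 166 and 151 TPM. It was the member called higher (0.39 ± 0.12, adjusted p = 0.0304). That call was lost with median centring (adjusted p = 0.132), without a mean-variance trend (0.0676), when either fed 12 h library was left out (0.145 and 0.109) and without fasted 12 h library 2 or 3 (0.0944 and 0.0627), and over all alternatives its adjusted p lay between 0.000869 and 0.145. Ndufs1, the most changed member at 4 h, was at 125 and 122 TPM against 111, 113 and 105 TPM and did not pass the test (-0.17 ± 0.10, adjusted p = 0.204).

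All 3 named complex III subunits were lower at 12 h. Uqcrc1 was at 393 and 389 TPM in the fed libraries, against 267, 248 and 289 TPM in the fasted ones (-0.55 ± 0.08, limma adjusted p = 0.000457). Uqcrc2 and Uqcrfs1 were at -0.42 ± 0.09 and -0.36 ± 0.06 (adjusted p = 0.00353 and 0.00148). Complex IV, in contrast with its neighbours in the chain, gave no call in either direction. Its members summed to 2034 ± 306 TPM in the fasted 12 h libraries, against 1045 ± 25.5 TPM for complex II (SD, n = 3). The part of this wider spread in the lack of calls was not tested. Cox4i1 was at 0.06 ± 0.12, Cox5a at -0.32 ± 0.36 and Cox5b at -0.11 ± 0.12 (adjusted p = 0.705, 0.527 and 0.508). The error of Cox5a was larger than that of every called member named here, so a change of a given size was less easily called in it.

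In complex V the strongest difference at 12 h was in Atp5k, the small membrane subunit e that takes part in dimers of the enzyme. It was at 85.5 and 84.2 TPM in the fed libraries, against 51.2, 42.1 and 25.6 TPM in the fasted ones (-1.13 ± 0.30, limma adjusted p = 0.014). Of the F1 subunits, Atp5a1 was at -0.43 ± 0.08, Atp5b at -0.32 ± 0.09, Atp5c1 at -0.53 ± 0.06 and Atp5d at -0.33 ± 0.09, all past the test (adjusted p from 6.23e-05 to 0.0187). Among the genes for the c ring, Atp5g2 was lower (-0.39 ± 0.10, adjusted p = 0.0116), while Atp5g1 and Atp5g3 did not pass. Kupffer cell markers summed to 75.98 to 82.6 TPM in the fed libraries, against 570.4 to 578 TPM in the fasted ones at 12 h, and endothelial markers to 33.8 to 36.2 TPM and 429 to 462 TPM. All 9 and all 10 of these marker genes were called higher. Erythroid markers summed to 23.2 to 29.6 TPM and 344 to 417 TPM, with 4 of 5 called higher and 1 lower. Hepatocyte markers summed to 60460 to 63570 TPM in the fed libraries, against 89630 to 94000 TPM in the fasted ones, and the part of these shifts in the subunit differences was not tested.

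The same 12 genes were lower at both times: Ndufa9, Ndufv2, Sdha, Sdhb, Uqcrc2, Uqcrfs1, Atp5a1, Atp5b, Atp5c1, Atp5d, Atp5f1 and Atp5j. They make up 63.2% of the 19 members lower at 4 h and 54.55% of the 22 lower at 12 h. Of all genes 9.74% were lower at both times, which is 36.3% of those lower at 4 h and 57.8% of those lower at 12 h. The 4 h and 12 h comparisons share no library, although their spread was estimated in a common fit. NRF1 or GABPA matches were held by 4 of the 15 members lower at 4 h with a promoter in the table (26.7%) and by 13 of the other 48 (27.1%). At 12 h they were held by 4 of 18 lower members (22.2%) and 13 of the other 45 (28.9%). The promoters of Sdhb and Atp5b printed above, with an NRF1 match and with none, belonged to genes lower at both times.

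Messages of the mitochondrial genome went the other way in the same hepatocyte libraries. Of the 10 listed mitochondrially encoded subunits 8 were higher and 0 lower at 4 h, against 10.4% and 26.8% of all genes. The same counts were found at 12 h, against 23.4% and 16.8% of all genes. The medians were 0.91 and 0.66 on the log2 scale. mt-Nd1, a membrane subunit of complex I, was at 1323, 1289 and 1348 TPM in the fed libraries, against 2228 and 2369.8 TPM in the fasted ones at 4 h (0.80 ± 0.05, limma adjusted p = 5.98e-06). At 12 h mt-Nd1 was at 2556 and 2595 TPM against 5440.1, 5681 and 5227 TPM (1.08 ± 0.05, adjusted p = 1.27e-07). The summed nuclear members over the summed mitochondrial messages gave a ratio of 1.02 to 1.22 in fed and 0.524 to 0.618 in fasted libraries at 4 h. At 12 h the ratio was 0.412 to 0.415 in fed and 0.199 to 0.207 in fasted libraries. At each time every fasted library had a lower ratio than every fed one. Since TPM are shares, a rise of the abundant mitochondrial messages lowers the share of all other genes, and the size of that effect on the members was not tested.

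**Figure D2:**
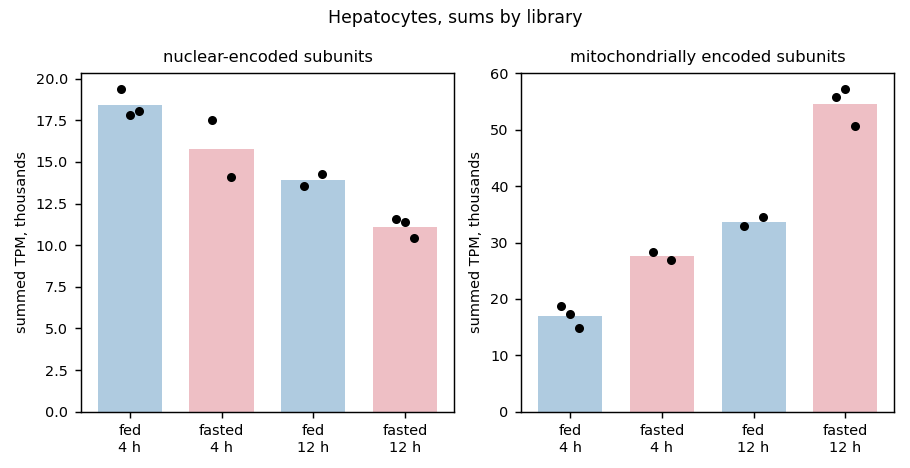
Summed TPM divided by 1000 (y axes, from 0) of the 74 nuclear-encoded members and of the 10 mitochondrially encoded subunits in each hepatocyte library, by group (x axis); points are libraries and bars the group means. Mitochondrial messages are lowest in the fed 4 h libraries (14800 to 18790 TPM) and highest in the fasted 12 h libraries (50670 to 57160 TPM), while the nuclear members run from 17830 to 19360 TPM down to 10430 to 11550 TPM.

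Time was compared within each feeding state. In fed mice 6 members were higher and 30 lower at 12 h than at 4 h, against 33.3% and 25.8% of all genes. In fasted mice 11 were higher and 35 lower, against 46.7% and 23.0% of all genes. The member medians were -0.42 and -0.56, against 0.09 and 0.45 for all genes. With median centring the counts became 3 higher and 44 lower in fed mice, against 2376 and 3106 of 8966 genes. In fasted mice they became 6 and 52, against 3106 and 3153. With a trend on transcript length removed, fed mice had 8 higher and 23 lower members, against 2281 and 2859 of 8934 genes. Fasted mice had 15 and 25, against 2764 and 3160. The member medians were then -0.19 and -0.15, against -0.11 and -0.08 for all genes. Both comparisons use libraries that also enter the fasting comparisons. Fed libraries of the 2 times differed in their Kupffer cell marker sums as well (1284 to 1333 TPM at 4 h, 75.98 to 82.6 TPM at 12 h), in their erythroid sums (3971 to 4937 TPM and 23.2 to 29.6 TPM) and in their monocyte sums (611 to 640.5 TPM and 28.1 to 28.8 TPM), and time and preparation cannot be told apart.

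Sdha and Sdhb, partners in complex II, went opposite ways with time. Sdha was higher at 12 h by 0.74 ± 0.08 in fed and 0.79 ± 0.08 in fasted mice (limma adjusted p = 3.9e-05 and 1.42e-05). Sdhb was lower, by -0.93 ± 0.08 and -1.15 ± 0.08 (adjusted p = 1.01e-05 and 1.31e-06). Ndufs1 rose most of the complex I members called, by 1.61 ± 0.10 in fed and 3.03 ± 0.10 in fasted mice (adjusted p = 1.94e-06 and 2.04e-08). Cox7b, a small complex IV subunit, rose by 1.28 ± 0.30 and 1.43 ± 0.30, and Atp5f1 by 0.46 ± 0.09 and 1.00 ± 0.09. The complex I member lowest at 12 h was Ndufb11 in fed mice (-1.03 ± 0.11) and Ndufs8 in fasted mice (-1.48 ± 0.12). In complex III it was Uqcrc1 in fed mice (-0.93 ± 0.08) and Uqcrq, a small accessory subunit, in fasted mice (-1.56 ± 0.56, adjusted p = 0.0337). Cox4i1 (-0.97 ± 0.12) and Atp5e (-1.16 ± 0.17) were the lowest of their complexes in fed mice, and Cox6a1 (-1.46 ± 0.14) and Atp5g2 (-1.14 ± 0.10) in fasted mice.

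The difference between the 12 h and the 4 h fasting effects was tested by an interaction term. It passed for 6 members in the positive and 4 in the negative direction, against 23.2% and 7.43% of all genes. With median centring it passed for 2 and 10, against 1439 and 975 of 8966 genes. Ndufs1 had the highest value, 1.41 ± 0.14 on the log2 scale (limma adjusted p = 9.89e-05), its fall at 4 h being larger than its difference at 12 h. Atp5f1 (0.54 ± 0.13), Uqcrfs1 (0.47 ± 0.09) and Cox6c (0.45 ± 0.14) had the same sign, with adjusted p from 0.00448 to 0.0371. Uqcrc1 (-0.40 ± 0.11), Cox6a1 (-0.66 ± 0.20) and Ndufs6 (-1.31 ± 0.41) had the opposite sign, with adjusted p from 0.0266 to 0.0386. Of these 7 named members, 4 lost the call without the mean-variance trend and 3 with the length trend removed. With median centring 2 lost it, and with quantile normalization 2. Some of the 7 also lost it when single libraries were left out. No member of complex II passed, so a change of the Sdha effect between times was not shown. The counts moved to 13 positive and 5 negative without fasted 4 h library 1, and to 6 and 10 without library 2.

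In bone marrow monocytes 4 h of fasting gave no member call in either direction, with 0 of 75 higher and 0 lower, against 0.265% and 0.159% of all genes called higher and lower. At an unadjusted p under 0.05 there were 21 of 75 members (28.0%), against 15.6% of all genes, and the median member was at 0.19 against -0.07 for all genes. Sdha was at 221, 224, 234 and 260.3 TPM in the fed libraries, against 248, 223, 204 and 220.2 TPM in the fasted ones, with groups that overlap (-0.07 ± 0.09, limma adjusted p = 0.704). Atp5b was at -0.27 ± 0.08 (adjusted p = 0.194), Uqcrc1 at -0.26 ± 0.11 (0.299), Ndufs1 at -0.15 ± 0.09 (0.436) and Cox4i1 at 0.10 ± 0.12 (0.685). Short members varied within the groups: 5 members, Atp5l, Cox8a, Ndufa6, Ndufs6 and Uqcr10, were listed at 0 in at least 1 fed library. Without fasted library 1, 5 members were called higher, against 90 of 9428 genes.

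At 17 h of fasting the picture in marrow monocytes was of another size. Of 76 members 59 were lower and 12 higher, against 14.0% and 75.4% of all genes called lower and higher. The median member was at -2.03, that of all genes at 1.18 on the log2 scale. Centring the libraries on their medians moved all genes to 3737 higher and 3323 lower and the members to 3 higher and 70 lower. Removing a trend on transcript length gave 10 higher and 50 lower members, against 3064 and 2753 of 9098 genes. By complex, 29 of 34 members of complex I, 1 of 4 of complex II, 5 of 8 of complex III, 12 of 13 of complex IV and 11 of 15 of complex V were lower.

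Direction went with transcript length. Of the 49 members with a median transcript under 1000 bases all 49 were lower, and of the 27 longer members 10 were lower and 12 higher. Among all genes of the short class 675 of 948 were lower and 146 higher, and among the longer 602 of 8150 were lower and 6717 higher. Across the 76 members the log2 fold change correlated with log length at a Pearson r of 0.718, against 0.639 across 9098 genes, a description over genes that share these 7 libraries. The short members summed to 23670 to 29640 TPM in fed libraries and 4948 to 6718 TPM in fasted ones. For the long members the sums were 7588 to 8227 TPM and 6195 to 6614 TPM. The fed 17 h sums of short members lay above those of every other marrow group, whose highest library was at 7381 TPM, whereas the fasted 17 h sums lay within their range of 2374 to 7381 TPM. The cytosolic ribosomal proteins, another list of short genes, had 72 of 79 members lower and 3 higher. The part of transcript length, or of library preparation, in the member differences was not tested further, and in this design it cannot be told apart from food.

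**Figure D3:**
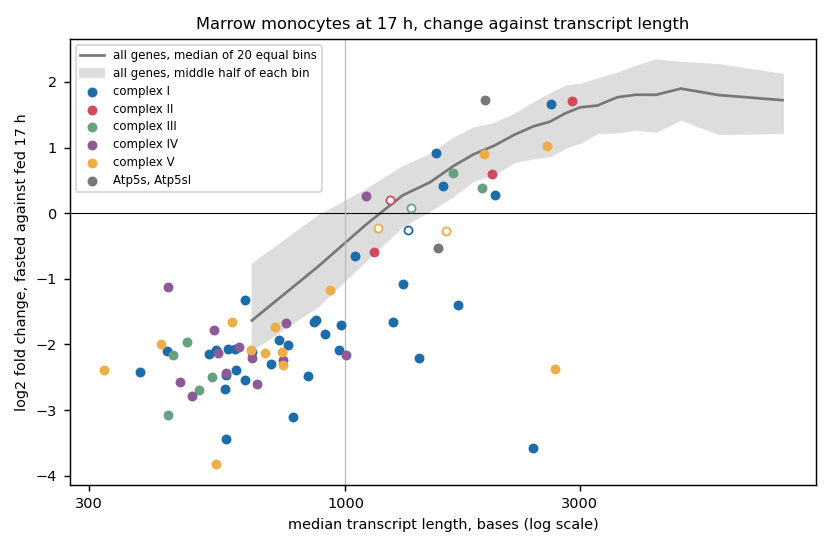
Log2 fold change at 17 h of fasting in marrow monocytes (y axis) against median transcript length in bases (x axis, log scale) for the 76 members, coloured by complex, with filled points past the adjusted p of 0.05 and the line and band showing the median and middle range of all genes in equal bins. All members left of 1000 bases lie below 0, and the longer members lie on both sides.

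Some of the long core subunits stood on the other side. Others did not, such as Sdhb, with a median transcript of 1142 bases, which was lower, as given below. Sdha was at 66.9, 48.1 and 65.7 TPM in the fed 17 h libraries, against 201, 189, 189 and 209 TPM in the fasted ones (1.71 ± 0.12, limma adjusted p = 5.86e-07). Ndufs1 was at 34.2, 36.0 and 34.8 TPM against 121, 115, 112 and 106 TPM (1.66 ± 0.09, adjusted p = 1.3e-07). Both were higher in every fasted library than in any fed one. With the length trend removed Ndufs1 stood at 0.28 (adjusted p = 0.03) and Sdha at 0.21, where it no longer passed (adjusted p = 0.139). Atp5sl, known in humans as DMAC2 for its part in complex I assembly, was at 22.4, 13.5 and 16.1 TPM against 48.7, 63.6, 50.6 and 73.2 TPM (1.72 ± 0.19, adjusted p = 1.11e-05). Atp5a1 (1.02 ± 0.09) and Atp5b (0.90 ± 0.10), the subunits alpha and beta, were higher on the TPM scale, but stood at -0.07 and -0.19 after median centring and at -0.33 and -0.02 after removal of the length trend. Uqcrc1 (0.61 ± 0.12) and Cox7a2l (0.26 ± 0.09) were likewise higher on the TPM scale and at -0.49 and -0.83 after median centring.

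The largest falls of complexes III, IV and V were in short members. That of complex I was in Ndufb2, placed among the longer members by the median of its annotated transcripts, 2413 bases. Which of its transcripts these libraries held was not tested. Atp5l, subunit g of the ATP synthase membrane part, was at 362, 492 and 422 TPM in the fed 17 h libraries, against 23.5, 35.4, 94.5 and 8.26 TPM in the fasted ones (-3.83 ± 0.72, limma adjusted p = 0.00155). Ndufb2, a small membrane-arm subunit of complex I, was at 175, 179 and 223 TPM against 11, 11.9, 42.4 and 8.87 TPM (-3.58 ± 0.45, adjusted p = 5.01e-05). Uqcr10, a small accessory subunit of complex III, was at 447, 612 and 462 TPM against 78.9, 71.4, 77.3 and 27.1 TPM (-3.07 ± 0.33, adjusted p = 9.27e-06). Groups of these 3 genes did not overlap, and the fasted libraries varied several-fold among themselves. In complex IV, Cox4i1 was at 1684, 1854 and 1563 TPM against 578, 542, 552 and 469.9 TPM (-1.67 ± 0.10, adjusted p = 2.42e-07). Cox6b1 (-2.79 ± 0.32) and Cox7a2 (-2.60 ± 0.23) were among the lowest. Cox6b2, an isoform best known from testis, was listed at 48.0 to 50.5 TPM in the fed libraries, against 19.2 to 27.0 TPM in the fasted ones (-1.12 ± 0.13, adjusted p = 1.22e-05), but at 1.31 after removal of the length trend.

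Complex II split by gene at 17 h. Sdhb was lower (510.3, 473 and 660.0 TPM against 416, 359, 351 and 315 TPM; -0.60 ± 0.13, limma adjusted p = 0.00184), Sdhc higher (0.60 ± 0.12, adjusted p = 0.000993) and Sdhd did not pass (0.20 ± 0.12, adjusted p = 0.139). Sdhc stood at -0.50 with median centring and -0.39 with the length trend removed. The summed level of complex II was 1016 ± 168 TPM in the fed libraries, against 1054 ± 77.6 TPM in the fasted ones (SD, n = 3 and 4), while that of complex IV was 8774 ± 986 and 2176 ± 289 TPM. The mitochondrially encoded subunits had 6 of 10 lower and 1 higher, against 14.0% and 75.4% of all genes, with a median of -0.51.

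The fasting effects at 17 h and 4 h in marrow were compared in an interaction fit over 15 libraries. It passed for 11 members in the positive and 58 of 75 in the negative direction, against 75.1% and 12.9% of all genes. With median centring it passed for 3 and 68, against 3489 and 2936 of 8844 genes. Ndufs1 (1.81 ± 0.12), Sdha (1.77 ± 0.15), Atp5sl (1.74 ± 0.24), Atp5a1 (1.22 ± 0.14) and Uqcrc1 (0.87 ± 0.17) were positive, with limma adjusted p from 9.1e-10 to 0.000131. Uqcrc1 turned to -0.28 with median centring and Atp5a1 to -0.26 with the length trend removed. Sdhb was negative (-0.58 ± 0.15, adjusted p = 0.00167). The members with the lowest values in complexes I, III, IV and V were listed at 0 in 4 h libraries, and no fold is given for them. The 4 h and 17 h libraries came from separate experiments, so time and experiment cannot be told apart.

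In the genotype experiment monocytes of fed CCR2-/- and fed C57BL/6 mice gave 0 of 68 members higher and 0 lower, against 0.641% and 3.74% of all genes called higher and lower. At an unadjusted p under 0.05 there were 10 of 68 members (14.7%), against 27.4% of all genes, and the median was 0.16 against -0.03 for all genes. Uqcrc1 came nearest to a call among the named members, with 503, 430.0 and 413 TPM in C57BL/6 and 367, 284 and 359.7 TPM in CCR2-/- libraries. All CCR2-/- values were below the C57BL/6 values, at -0.42 ± 0.12, but the limma adjusted p was 0.0696. Sdha, at 216, 217 and 216 TPM against 211, 209 and 245 TPM, was at 0.03 ± 0.08 (adjusted p = 0.83). Atp5b was at 0.05 ± 0.08 and Atp5a1 at -0.08 ± 0.08. Cox6a1 varied most within groups, from 31.0 to 114 TPM and from 71.8 to 138 TPM. Without C57BL/6 library 3, 2 members were called higher and 0 lower, against 116 and 634 of 9210 genes. Without CCR2-/- library 1, 1 was called higher and 1 lower, against 70 and 990 of all genes. With the replicate number as a block 6 were higher and 1 lower, against 281 and 1142 of all genes.

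In spinal cord monocytes of mice with EAE, fasting cycles left all 76 members above 0 on the log2 scale, but only 1 passed the test, against 1.58% of all genes called higher. None was lower, against 0.859% of all genes. The median member was at 0.74 and that of all genes at 0.26, and 48 members (63.2%) had an unadjusted p under 0.05, against 21.5% of all genes. Median centring gave 8 members higher and 0 lower, against 470 and 217 of 9079 genes. With the length trend removed 3 were higher and 0 lower, against 300 and 225 of 9052 genes. The median member was then at 0.19, against -0.02 for all genes. Cox7a2l, a relative of the complex IV subunit Cox7a2 that is known from work on respiratory supercomplexes and of which C57BL/6 mice carry a shortened variant, was at 61.9, 69.2, 97.9 and 104 TPM in the fed libraries, against 152, 207, 191 and 172 TPM in the fasted ones. Every fasted library lay above every fed one (1.13 ± 0.23, limma adjusted p = 0.041). That call was lost when any fasted library, fed library 1 or fed library 2 was left out (adjusted p from 0.0728 to 0.164), and over all alternatives the adjusted p of Cox7a2l lay between 0.00746 and 0.164. Cox7a2 itself was at 0.55 ± 0.24 (adjusted p = 0.216).

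Other core subunits had wide errors. Cox4i1 was at 347, 314, 600.4 and 531 TPM in the fed cord libraries, against 694, 748, 1031 and 902 TPM in the fasted ones (0.95 ± 0.26, limma adjusted p = 0.0901). Ndufs3, a core subunit of complex I, was at 35.6, 37.4, 92.1 and 85.7 TPM against 117, 147, 162 and 127 TPM (1.25 ± 0.34, adjusted p = 0.0856). For both genes the groups did not overlap, and the gap was widest for fed libraries 1 and 2. Atp5a1 was at 300.2, 253, 819.9 and 788 TPM against 679, 916, 1049.7 and 827 TPM, with overlapping groups (0.86 ± 0.40, adjusted p = 0.247). Sdha, at 95.8, 95.2, 223 and 182.5 TPM against 139, 167, 146 and 168 TPM, was at 0.15 ± 0.30 (adjusted p = 0.791). In that gene fed libraries 3 and 4 were the highest of all 8.

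Fed libraries 1 and 2, with the high neutrophil markers, had member sums of 7486 and 6798 TPM. The other fed libraries had 13920 and 11700 TPM and the fasted ones 13630, 14120, 18220 and 16890 TPM. Without libraries 1 and 2, 2 members were called higher and 0 lower, against 293 and 481 of 9079 genes. The median member was then at 0.39 against -0.13 for all genes. Without fed library 3 alone 29 members were called higher, against 572 of 9078 genes. Without fed library 1 or library 2 alone 0 were, against 48 and 46 of all genes. All 10 neutrophil markers were listed and none of them was called. Markers of other cells differed between the feeding groups as well: the 2 listed dendritic cell markers summed to 8.17 to 13.8 TPM in the fed libraries, against 75.5 to 111.8 TPM in the fasted ones, with Flt3 called higher and Cd209a lower. The 3 listed microglia markers summed to 189.8 to 543.8 TPM and 141.9 to 166 TPM, with none called. The part of such cells, neutrophils included, in the member values was not tested. Mitochondrially encoded subunits summed to 42140 TPM in fasted library 1, against 3039 to 11790 TPM in the other 7 libraries.

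**Figure D4:**
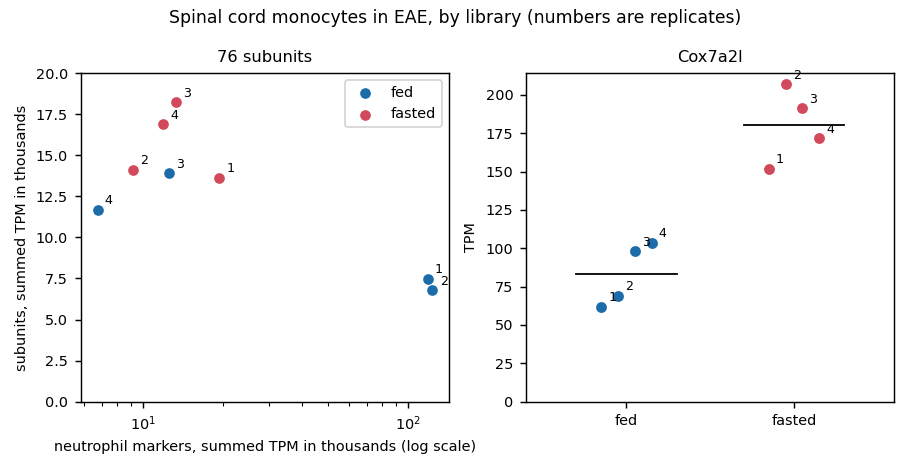
Left, summed TPM of the 76 members divided by 1000 (y axis) against summed neutrophil markers, on the same scale (x axis, log scale) in the 8 spinal cord libraries; right, TPM of Cox7a2l (y axis, from 0) by group, with points for libraries, lines for group means and numbers for replicates. Fed libraries 1 and 2 lie at the far right with the lowest sums, and the 4 fasted libraries lie at 152 to 207 TPM of Cox7a2l, above the fed range of 61.9 to 104 TPM.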

How the data were processed

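RNA-seq libraries of 10 hepatocyte, 21 bone marrow monocyte and 8 spinal cord monocyte samples were used, prepared from total RNA with a low-input kit, per the labels' protocols. The deposited values are TPM per gene (transcript shares corrected for transcript length), made by the authors with kallisto 0.44.0 and GRCm38, per the submitters' processing notes. The unit was read from the values, which are not whole numbers and sum to 982922 to 994023 per library. How transcripts were annotated and summed, and which genes were filtered out, was not given in the sources used here. The number of reads is unknown, so precision was taken from the spread between libraries and no counting error is given. The labels do not say whether libraries come from separate animals, and p-values then measure only the spread between libraries, which may be technical.

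From these values, 13 to 15 date-like symbols per experiment were dropped, a pseudocount of 1 was added before log2, and genes with a mean of at least 1 TPM were tested. Fold changes are on the log2(TPM + 1) scale, which understates changes of low genes. Tests used limma 3.58.1 (R 4.3.3), fitting a trend of variance on mean and robust empirical Bayes, with Benjamini-Hochberg adjustment over all genes tested, and a gene was called below 0.05. Hepatocyte groups entered a common fit of 10 libraries, each monocyte experiment was fitted alone, and the marrow interaction over 15 libraries. A test for counts had been foreseen only if the files held counts, and was not used. The fits were tested on simulated data. Alternatives covered normalization, centring, a length trend, pseudocount, filter, replicate numbers as a block and each library left out. Transcript lengths came from the GENCODE M21 basic set, which matched 99.6% to 99.7% of genes. Promoters came from RefSeq (GRCm38.p6), and members without an entry there were not used in that search.

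Members named are the called member with the highest or lowest change of its complex at a mean of at least 10 TPM, isoform families, core subunits and the most abundant member of each complex. For time and interaction comparisons only the first kind was named, and for comparisons with few calls a few core subunits. Named results of 1 member are not reported here, and it stays in the counts. The members and lists were chosen with earlier results of these data known, and the length of 1000 bases after values were seen.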

Additional observations from a re-analysis of the deposited data

Results flagged for a closer look

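Each of 100 values, of 1 gene or of the sum of 1 complex in 1 group of 4 libraries, was looked at. In 7 of them, all of genes, 1 library was far from the other 3. Chance gives about 1 in 20. In fed 4 h marrow, library 4 was at 142.6 TPM of Ndufs1 (others 114.6 to 118.2) and at 128.4 TPM of Sdhc (others 154.5 to 158.7). In fasted 4 h marrow, library 4 was at 286.2 TPM of Sdhd (others 320.5 to 326.4). In fasted 17 h marrow, library 1 was at 283.2 TPM of Ndufv2 (others 228.8 to 237.7) and 243.2 TPM of Uqcrfs1 (others 209.7 to 212.5). Library 3 of that group was at 42.39 TPM of Ndufb2 (others 8.873 to 11.85), and library 4 at 27.08 TPM of Uqcr10 (others 71.42 to 78.95).

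Fasting effects differed between times by the interaction term for the members named in the report. Several of the hepatocyte calls among them were lost under other settings, as given above. In hepatocytes the log2 difference of the effects, 12 h minus 4 h, was 1.41 for Ndufs1, -1.31 for Ndufs6, 0.47 for Uqcrfs1, -0.40 for Uqcrc1, -0.66 for Cox6a1, 0.45 for Cox6c and 0.54 for Atp5f1. In marrow monocytes, 17 h minus 4 h, it was 1.81 for Ndufs1, 1.77 for Sdha, -0.58 for Sdhb, 0.87 for Uqcrc1, 1.22 for Atp5a1 and 1.74 for Atp5sl.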

How the results depend on the processing

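Counts of members called kept within 1.5 times under a pseudocount of 0.1, no filter and empirical Bayes without robustness. Centring libraries on their medians gave 3 higher in hepatocytes at 4 h, 0 at 12 h, 3 and 6 for time in fed and fasted mice, 2 higher and 10 lower for the hepatocyte interaction, 3 higher in marrow at 17 h and in its interaction, and 8 in spinal cord. Removing the length trend gave 2 higher at 4 h and 4 at 12 h in hepatocytes, 8 lower for their interaction and 3 higher in cord. Quantile normalization gave 2 higher at 4 h and 14 lower at 12 h in hepatocytes and 8 higher in cord. Without the mean-variance trend 2 members were higher at 4 h and 0 at 12 h, 3 higher and 1 lower for the hepatocyte interaction, and 0 in cord. With only the libraries of the 2 groups, 2 were higher at 12 h. Without fed cord libraries 1 and 2, 2 were higher.

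In marrow at 17 h the sign turned with median centring for Atp5a1 (-0.068), Atp5b (-0.19), Cox7a2l (-0.83), Ndufv1 (-0.18), Sdhc (-0.50), Sdhd (-0.89), Uqcrc1 (-0.49), Uqcrc2 (-0.70) and Uqcrfs1 (-1.02). With the length trend removed it turned for Atp5a1 (-0.33), Atp5b (-0.019), Atp5g2 (0.071), Cox6b2 (1.31), Sdhc (-0.39), Uqcrc1 (-0.051) and Uqcrc2 (-0.51). In the marrow interaction it turned for Uqcrc1 with centring (-0.28) and for Atp5a1 without the length trend (-0.26). The cause was not tested.

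Leaving out each library in turn gave 1 to 9 higher and 15 to 37 lower in hepatocytes at 4 h, 0 to 2 and 14 to 26 at 12 h, and 4 to 8 and 23 to 41 for time in fed mice. It gave 10 to 18 and 29 to 47 for time in fasted mice and 3 to 13 and 0 to 10 for the interaction. In marrow it gave 0 to 5 higher at 4 h, 10 to 13 higher and 59 to 62 lower at 17 h, and 0 to 2 and 0 to 1 in the genotype experiment. In cord it gave 0 to 29 higher. Where a group kept 1 library, that library was taken to vary like the others.

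Replicate numbers did not pair the libraries: the correlation of same-numbered deviations was not above 0.1 in every pair of any comparison with 3 or more pairs, and ran from -0.079 to 0.322 in the genotype experiment. In hepatocytes at 4 h, with 2 pairs, it was 0.163 and 0.205. With the replicate number as a block 6 members were higher and 1 lower in CCR2-/- monocytes, against 281 and 1142 of 9210 genes. In hepatocytes at 12 h 2 were higher and in cord 0, and the other counts stayed within 1.5 times. No depth is known, and groups of 2 libraries limit the hepatocyte comparisons.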

Other observations

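Genes that serve the respiratory chain without being part of it were read from lists written with earlier results of these data known. Regulators of mitochondrial biogenesis split in hepatocytes at 4 h of fasting, with 2 of 13 higher and 4 lower, against 10.4% and 26.8% of all genes. Tfam, which packages and transcribes mitochondrial DNA, was at 11.9, 22.0 and 26.2 TPM in the fed libraries, against 9.77 and 3.48 TPM in the fasted ones (-1.53 ± 0.38, limma adjusted p = 0.0125), and Polrmt, the mitochondrial RNA polymerase, at 18.7, 16.4 and 29.1 TPM against 39.6 and 58.8 TPM (1.18 ± 0.28, adjusted p = 0.01). At 12 h 4 of 13 were higher and 0 lower, against 23.4% and 16.8% of all genes, among them Esrra (0.76 ± 0.14), Polg (1.08 ± 0.19) and the coactivator Ppargc1b (1.21 ± 0.32). In marrow monocytes at 17 h all 11 listed regulators were higher, where 75.4% of all genes were.

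Ucp2, an uncoupling protein of the inner membrane, was higher in fasted hepatocytes at both times. It was at 142, 119 and 137 TPM in the fed libraries, against 316 and 254 TPM in the fasted ones at 4 h (1.09 ± 0.16, limma adjusted p = 0.000957). At 12 h it was at 22.7 and 22.1 TPM against 143, 98.3 and 128 TPM (2.39 ± 0.16, adjusted p = 2.76e-06). Kupffer cells are known to express Ucp2, and their markers were higher in the same fasted libraries; their part was not tested. Slc25a5, an ADP/ATP carrier, was lower at both times (-0.54 ± 0.05 and -0.48 ± 0.05). Over all genes 26.8% were lower at 4 h, and 16.8% lower and 23.4% higher at 12 h. Of 13 Krebs cycle genes 10 were lower and 0 higher at 4 h, and 4 were lower and 4 higher at 12 h. Of 75 mitochondrial ribosomal proteins 24 were lower and 0 higher at 4 h, a share of lower genes (32.0%) near that of all genes, and 21 lower (28.0%) and 3 higher at 12 h. Electron carriers and coenzyme Q synthesis had 7 of 16 lower at 4 h, with cytochrome c (Cycs) at -0.92 ± 0.12, and 4 lower at 12 h, or 43.75% and 25% of those tested.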
